A study of Rattus norvegicus with 10 samples.

Results

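Mitochondrial ribosomal protein genes were measured by RNA sequencing in the choroid plexus, the tissue that secretes cerebrospinal fluid into the brain ventricles. The genes were those whose symbol starts with MRPL (large subunit by name) or MRPS (small subunit by name) in the symbol lists that accompany the study, which name 2015 of the 32883 genes in the data by Ensembl identifier. This gave 40 genes, 25 MRPL and 15 MRPS. Of the symbols in these lists, 7 were held by more than 1 identifier and were left out, and none of those was an MRPL or MRPS symbol. The list of all expressed genes was at hand only for its abundant end, so that MRPL and MRPS genes of lower abundance were not analysed here.

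The tissue came from 10 female Wistar rats of 27 weeks. A high fat diet (HFD), with 60% of its energy from fat, was given to 5 rats for 21 weeks from an age of 6 weeks, and 5 rats received a control diet of matched nutrient sources with 10% of the energy from fat. Rats entered the experiments by body weight, with lighter control rats and heavier HFD-fed rats, so that diet and selection by weight cannot be told apart. Each library held the choroid plexus of 1 rat, from the lateral and the fourth ventricle. All 9 epithelial marker genes looked for were detected in every rat, among them TTR, the transthyretin gene, which took 32.2 to 39.7% of all transcripts.

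The mitochondrial ribosome, or mitoribosome, translates the messenger RNAs that are made from mitochondrial DNA. Those few messengers encode core subunits of the respiratory chain and of the ATP synthase, whereas the proteins of the mitoribosome itself are encoded in the nucleus, translated in the cytosol and imported. Its small subunit reads the messenger and its large subunit joins the amino acids, and many of its proteins have no counterpart in the bacterial ribosome. The choroid plexus epithelium is rich in mitochondria, which supply its ion transport with ATP.

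The values are TPM, the share of a transcript among all transcripts, corrected for length and set to the same total in every rat. For every rat, the ratio of each gene to its mean over all 10 rats was taken, and the TPM were divided by the median of these ratios over 12037 genes. The quotients are called rescaled TPM. TPM carry no read number, and the study's methods name a sequencing output but no read number per library. The read number of each library is therefore unknown. The library of control rat 1 was unlike those of the other 9 animals. Its divisor was 0.749, against 0.945 to 1.13 in the others. After rescaling, it had 1741 genes at over 2-fold distance from the median that the remaining animals gave, where each of those had 106 to 157 such genes. The mean effective transcript length, which weights each gene's length by its abundance, was 789 bases in this rat, below the 874 to 968 bases of the other libraries. The mitochondrial ribosomal genes of this rat had a median log2 difference of 0.31 from the other control rats, with 29 of 40 higher and none more than 2-fold away. Results are therefore given with and without control rat 1. In bulk tissue, fewer cells of a type and less RNA per cell cannot be told apart.

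All 40 genes were expressed in every rat at a moderate level. Their mean rescaled TPM had a median of 79.6. The symbol lists hold mostly abundant genes, and the 2001 named genes tested had a median of 92.5, against 10.4 for all genes tested, so that a level above that of all genes was set by how the 40 were chosen. The median was 347 for 76 nuclear genes of the respiratory chain and ATP synthase, 596 for 63 cytosolic ribosomal protein genes and 5512 for the 13 messenger genes of the mitochondrial DNA. The MRPL genes had a median of 80.5 and the MRPS genes one of 65.6. MRPS6 was the most abundant, with a mean rescaled TPM of 341 and a range over the 10 rats of 298 to 387. MRPS21 was next with a mean of 221 (185 to 323) and lay below MRPS6 in every rat other than control rat 1. MRPL54 (195, from 158 to 319), MRPL33 (175, from 94.4 to 348) and MRPL42 (164, from 133 to 180.1) followed, and the ranges of these 3 overlapped. MRPL48, at 43.9, had the lowest mean level of the 40. The lowest and highest means thus lay within 1 order of magnitude.

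The spread between rats on the same diet was small for most of these genes. The standard deviation (SD) of the log2 values within the diets had a median of 0.150, against 0.215 over all genes tested and 0.157 over the 2001 genes that the lists name by a symbol of their own. It ran from 0.0599 to 0.683. MRPL33, a small protein of the large subunit, had the widest spread. Its rescaled TPM were 113, 94.4, 136, 348 and 228 in control rats 1 to 5 and 132, 248, 228, 125 and 99.3 in HFD-fed rats 1 to 5. Low and high rats occurred on both diets, and the groups overlapped over most of their range. MRPL3, which lies near the peptidyl transferase centre, was among the steadiest genes, with 49.6 to 56.8 over the 10 rats.

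Promoters of 31 of the 40 genes were found by symbol in a RefSeq table of the rat assembly GRCr8, which is not the build of the expression data. They are shown because genes of the mitoribosome are known to share promoter motifs for factors that control nuclear genes of mitochondria. The stretches of MRPS18A (chr9:22367351-22367480, minus strand), MRPL48 (chr1:164351347-164351476, minus strand), MRPL42 (chr7:32028493-32028622, minus strand) and MRPL12 (chr10:106256646-106256775, plus strand) run from 100 bases before the annotated start to 30 bases after it. They are written 5′ to 3′ on the strand of the gene, and capitals mark matches to the motifs named below, on either strand.
MRPS18A: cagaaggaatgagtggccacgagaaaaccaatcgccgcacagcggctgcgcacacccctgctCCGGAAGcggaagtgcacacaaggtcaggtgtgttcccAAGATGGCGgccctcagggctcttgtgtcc
MRPL48: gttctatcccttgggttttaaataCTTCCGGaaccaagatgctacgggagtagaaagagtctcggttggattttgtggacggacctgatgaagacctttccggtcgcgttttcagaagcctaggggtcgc
MRPL42: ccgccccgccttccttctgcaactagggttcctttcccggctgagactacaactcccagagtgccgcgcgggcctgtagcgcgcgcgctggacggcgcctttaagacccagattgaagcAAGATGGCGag
MRPL12: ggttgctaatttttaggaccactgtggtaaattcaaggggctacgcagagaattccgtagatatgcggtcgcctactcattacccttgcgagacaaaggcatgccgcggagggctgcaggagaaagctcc

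The motif CCGGAAG, a core bound by ETS factors such as GABPA, a regulator of nuclear genes of mitochondria, was searched on both strands from 250 bases before the start to 50 after it. It was present for 12 of the 31 genes (38.7%), against 9.63% of 27457 genes and 21.9% of 1541 genes named in the symbol lists, where a gene with more than 1 promoter in the table, as 2 of the 31 have, counted if any of them held the letters. MRPS21 is counted on 1 of its 2 promoters. The shown promoter of MRPS18A holds it on the gene's strand and that of MRPL48 on the opposite strand, read there as CTTCCGG. AAGATGGCG, a core of YY1 sites, was present for 2 of 31 genes, MRPS18A and MRPL42 (6.45%), against 1.99% of all genes and 4.74% of the named genes. GCGCATGCG, a core of NRF1 sites that is nearly its own reverse complement, was present for 1 gene, MRPL17 (3.23%), against 1.70% of all and 4.74% of the named genes. The ESRRA motif was present for none of 31, for 0.441% of all genes and for 0.389% of the named genes. The promoter of MRPL12 shown above holds none of these letters. A match is a description of letters in this window and not a measured binding site.

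The comparison of the diets asked whether prolonged fat-rich feeding was accompanied by other expression levels in the choroid plexus. Mitochondrial ribosomal genes of both subunits had slightly lower mean log2 levels in HFD-fed rats. The log2 fold change, HFD minus control, had a median of -0.18 and ran from -0.37 for MRPL54 to 0.06 for MRPL18, and it was below 0 for 38 of 40 genes after rescaling but for 31 of 40 with TPM as deposited. On a linear scale the median corresponds to a difference of -11.6%. No single gene of the 40 passed the test adjusted over all genes. The limma test (a linear model on log2(rescaled TPM + 0.1) that borrows the spread across genes) covered the 12198 genes whose mean rescaled TPM reached 1. After Benjamini-Hochberg adjustment 0 of them were under 0.05, and the smallest adjusted p was 0.540. Before adjustment, p was under 0.05 for 1051 genes, or 8.62%.

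Of the 40 genes, 11 (27.5%) had an unadjusted limma p under 0.05 with the lower mean log2 level in HFD-fed rats, and 0 with the higher. Over all genes tested, 4.84% were lower by this criterion and 3.78% higher. Over the 2001 named genes, of which 10 have a level below the median of all genes tested, 13.4% were lower and 1.6% higher, with a median log2 fold change of -0.08 against 0.01 for all genes. The share of genes with a log2 fold change below 0 was 95% among the 40, 70.2% among the named genes and 47.1% among all genes. The scaling moved these values. With TPM as deposited the median of all genes was 0.12, a shift of 0.10, and the median of the 40 was -0.07, with 3 genes at p under 0.05, where 1.26% of all genes and 4.05% of the named genes were lower by this criterion. The share below 0 was then 77.5% among the 40, 27.0% among all genes and 44.5% among the named genes. Relative to the median of all genes, the 40 had a median of -0.19 under both scalings, and 39 of 40 lay below that median. The scaling divides each rat by a constant and moves all log2 fold changes by nearly the same amount. That the 2 scalings give the same relative values was therefore set in advance and is no further check. The named genes had a relative median of -0.10, with 1461 of 2001 below the median of all genes after rescaling.

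Without control rat 1, the median of the 40 was -0.12, all 40 had a log2 fold change below 0 and 15 had an unadjusted limma p under 0.05, against 6.28% of all genes and 17.0% of the named genes. Of all genes 49.5% and of the named genes 73.7% then had a log2 fold change below 0. All 11 genes of the fit with 10 rats were among these 15, and MRPL13, MRPL49, MRPL53 and MRPS6 were the other 4. The smallest adjusted p among the 40 was then 0.227. When control rat 1 was left out of the TPM as deposited, all 40 again had a log2 fold change below 0, with a median of -0.11 and 12 genes at p under 0.05, where 3.06% of all genes and 9.95% of the named genes were lower by this criterion and 45.8% and 68.9% had a log2 fold change below 0. Over all genes tested with 10 rats, single log2 fold changes ran from -4.24 to 3.61.

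**Figure D1:**
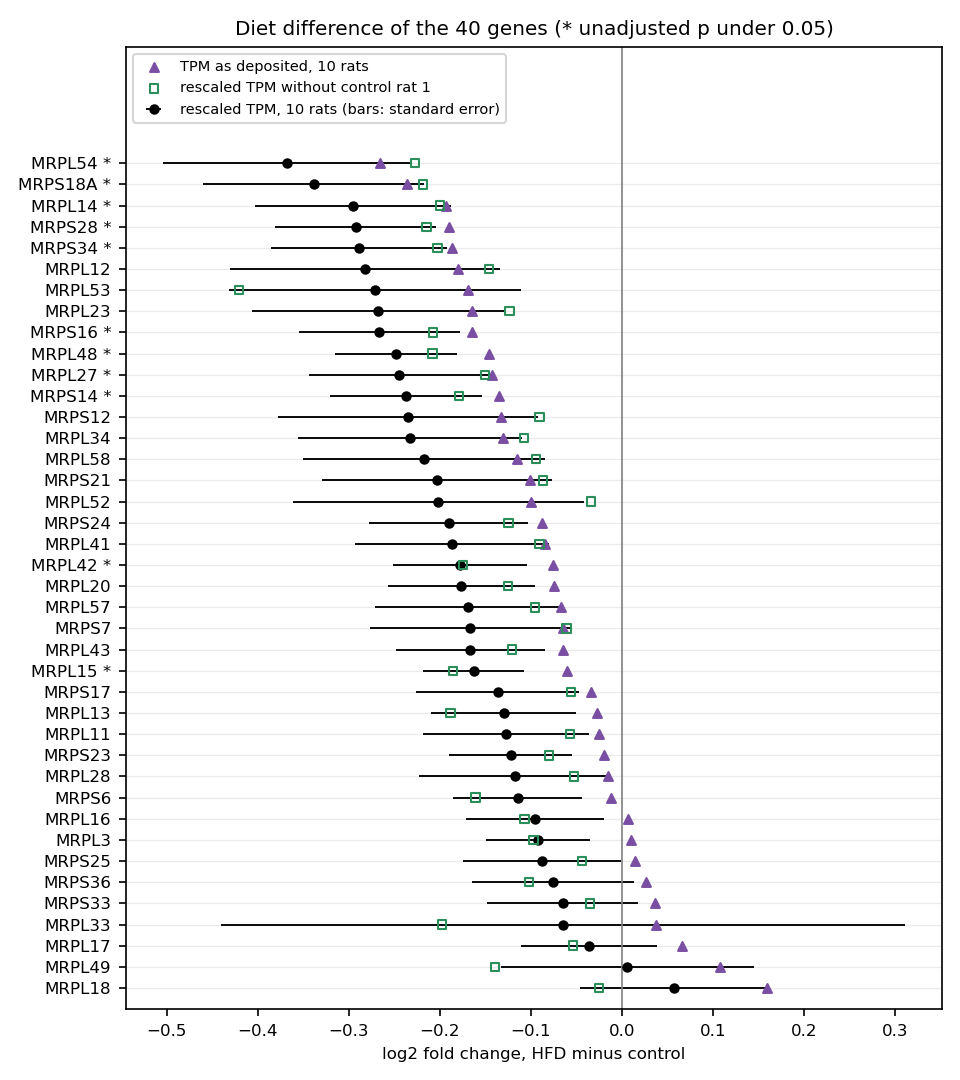
Log2 fold change, HFD minus control, of each of the 40 genes on the horizontal axis, sorted by size. Black circles with standard error bars are rescaled TPM of 10 rats, green squares leave out control rat 1 and purple triangles are TPM as deposited. Black circles lie below 0 for 38 genes, green squares for 40 and purple triangles for 31, and asterisks mark the 11 genes with an unadjusted p under 0.05.

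Large subunit genes came in 2 kinds. For 15 MRPL genes the protein has a counterpart in the bacterial large subunit, and 14 of them had a log2 fold change below 0 after rescaling (10 with TPM as deposited), with a median log2 fold change of -0.13 (-0.12 without control rat 1 and -0.028 with TPM as deposited) and 3 at an unadjusted p under 0.05. For 10 the protein is known only from mitochondrial ribosomes, and 9 had a log2 fold change below 0 under both scalings, with a median of -0.19 (-0.13 without control rat 1 and -0.092 with TPM as deposited) and again 3 at p under 0.05. Without control rat 1, the medians of the 2 kinds thus lay close to each other. Over all 25, the median was -0.18 and 6 genes (24%) had an unadjusted p under 0.05, against 4.84% of all genes and 13.4% of the named genes. As deposited, the TPM gave 1 of 25 genes (4%), against 1.26% of all genes and 4.05% of the named genes.

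MRPL48 (ENSRNOG00000018042), a mitochondrial addition to the large subunit, had the smallest p of the 40 with all rats. Its rescaled TPM were 53.2, 45.8, 46.6, 46.5 and 46.1 in control rats 1 to 5, and 37.3, 39.4, 43.0, 42.3 and 38.5 in HFD-fed rats 1 to 5. Every HFD-fed rat lay below every control rat. The means were 47.7 ± 3.11 and 40.1 ± 2.44 (SD, n = 5 each), which is a log2 fold change of -0.25 (standard error 0.067; exact permutation test, two-sided, p = 0.00794, which is the smallest that the 252 assignments of these rats allow). The unadjusted limma p was 0.00366 and the adjusted p 0.540. Without control rat 1 the log2 fold change was -0.21, and with TPM as deposited it was -0.15, where the groups overlapped.

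MRPL54 (ENSRNOG00000020464), also known only from mitochondrial ribosomes, had the largest difference with all rats, whereas MRPL53 had it without control rat 1. MRPL54 was at 319, 198, 202, 201 and 185 rescaled TPM in control rats 1 to 5 and at 158, 189, 172, 159 and 164 in HFD-fed rats 1 to 5. Control rat 1 was far above all other rats, and HFD-fed rat 2 overlapped with control rat 5. This amounted to a log2 fold change of -0.37 with all rats and -0.23 without control rat 1. The exact permutation test, two-sided, gave p = 0.0159 with all rats.

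MRPL14 (ENSRNOG00000019734), a protein at the face between the subunits, had means of 89.1 ± 15.4 in control rats and 71.9 ± 4.72 in HFD-fed rats (SD, n = 5 each). Control rats 1 to 5 were at 115, 91.2, 75.6, 83.8 and 79.9 and HFD-fed rats 1 to 5 at 76.3, 70.5, 69.6, 66.0 and 77.1. Control rat 3 lay within the range of the HFD-fed rats and the other 4 control rats lay above it. Its log2 fold change of -0.30 became -0.20 without control rat 1 and -0.19 with TPM as deposited.

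MRPL15 (ENSRNOG00000008566), a protein with a bacterial counterpart, was also in the shorter list of the study. That list holds the genes that the study called differentially expressed, at an adjusted p under 0.05 by DESeq2 on raw counts. It was selected on these same rats, so that the difference of MRPL15 is not independent evidence. Its rescaled TPM were 86.7, 92.8, 92.5, 96.9 and 92.6 in control rats and 77.4, 87.2, 83.3, 82.7 and 81.5 in HFD-fed rats. Only control rat 1 and HFD-fed rat 2 overlapped. With all rats the log2 fold change was -0.16, with a standard error of 0.055 (exact permutation test, two-sided, p = 0.0159), and without control rat 1 it was -0.19. With TPM as deposited it was -0.061.

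MRPL12 (ENSRNOG00000036695), the stalk protein that contacts translation factors, was in the same shorter list. It was at 87.1, 49.4, 65.0, 52.0 and 52.1 in control rats and at 49.8, 55.5, 43.0, 50.2 and 47.6 in HFD-fed rats. The groups overlapped, since control rats 2, 4 and 5 lay among the HFD-fed rats, control rat 3 above them and control rat 1 far above them. A log2 fold change of -0.28 was found, with a standard error of 0.148 (exact permutation test, two-sided, p = 0.119) and was -0.15 without control rat 1.

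MRPL42 (ENSRNOG00000042740) had 174 ± 8.55 in control rats and 154 ± 14.0 in HFD-fed rats (SD, n = 5 each), which is a log2 fold change of -0.18 that was -0.17 without control rat 1. With TPM as deposited it was -0.08, with an unadjusted limma p of 0.474. Control rats 1 to 4 lay between 176 and 180.1, whereas control rat 5, at 159, fell within the range of 133 to 167 in HFD-fed rats. MRPL27 had an unadjusted limma p of 0.0310 and is named here although the naming rule did not select it. It had 139 ± 22.5 and 116 ± 6.60 (SD, n = 5 each), which is a log2 fold change of -0.24, and -0.15 without control rat 1. With TPM as deposited MRPL27 was at -0.14, with an unadjusted limma p of 0.0760.

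MRPL53 and MRPL52, both known only from mitochondrial ribosomes, depended on control rat 1 in opposite ways. MRPL53 was at 57.2 in control rat 1, the lowest of all rats, and at 86.9 to 115 in the other control rats, against 62.9 to 82.6 in HFD-fed rats. Its log2 fold change was -0.27 with all rats and -0.42 without control rat 1, where the groups no longer overlapped. MRPL52 was at 85.2 in control rat 1 and at 46.7 to 48.3 in the other control rats, against 42.2 to 52.6 in HFD-fed rats. Its log2 fold change was -0.20 with all rats and -0.03 without control rat 1.

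Of the MRPL genes, 2 had a log2 fold change above 0 with all rats. MRPL18, a protein with a bacterial counterpart, had 46.4 ± 6.29 in control rats and 48.0 ± 4.31 in HFD-fed rats (SD, n = 5 each), which is a log2 fold change of 0.06 with all rats, -0.03 without control rat 1 and 0.16 with TPM as deposited. MRPL49 was the other one, at 0.01 with all rats and -0.14 without control rat 1. MRPL33 had a log2 fold change of -0.06 (standard error 0.376), and MRPL3 one of -0.09, and both had the opposite sign with TPM as deposited (0.04 and 0.01). MRPL17 (-0.04, and 0.07 with TPM as deposited) and MRPL16 (-0.10, and 0.01), which the naming rule did not select, were also near 0 and had the opposite sign with TPM as deposited.

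**Figure D2:**
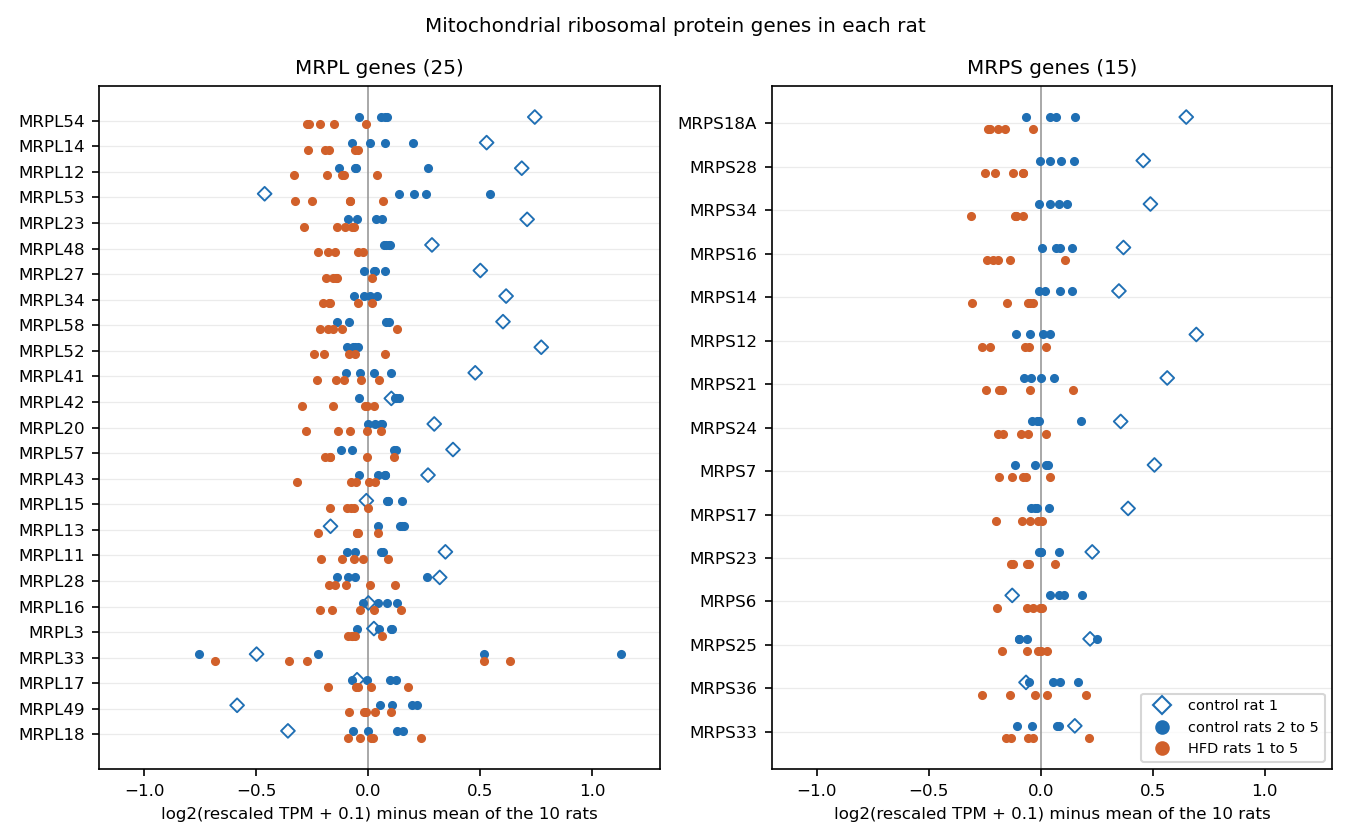
Level of each of the 40 genes in each rat, as log2(rescaled TPM + 0.1) minus the mean of the 10 rats on the horizontal axis, with MRPL genes on the left and MRPS genes on the right. Open diamonds are control rat 1, blue points the other 4 control rats and orange points the 5 HFD-fed rats. Control rat 1 is the highest of the 10 rats for 26 genes, and MRPL33 has the widest scatter on both diets.

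All 15 MRPS genes had a log2 fold change below 0 after rescaling, and 12 of 15 with TPM as deposited. The median log2 fold change was -0.19 (-0.10 without control rat 1), and 5 genes had an unadjusted limma p under 0.05 (33.3%, against 4.84% of all genes and 13.4% of the named genes). The TPM as deposited gave 2 of 15 (13.3%), against 1.26% and 4.05%. The 9 genes whose protein has a bacterial counterpart in the small subunit had a median of -0.20 (-0.12 without control rat 1 and -0.10 with TPM as deposited), with all 9 below 0 in each of these fits. The 4 known only from mitochondrial small subunits had one of -0.10 (-0.062 without control rat 1), with 4 below 0, and one of -0.0028 with TPM as deposited, with 2 below 0. The other 2 carry an MRPS symbol but are placed elsewhere by later work, MRPS18A in the large subunit and MRPS36 in the alpha-ketoglutarate dehydrogenase complex.

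MRPS28 (ENSRNOG00000032630), a small subunit protein, was at 92.4, 69.1, 71.6, 74.5 and 67.1 rescaled TPM in control rats 1 to 5 and at 58.4, 63.6, 56.6, 63.8 and 61.8 in HFD-fed rats 1 to 5. All HFD-fed rats lay below all control rats, and control rat 1 lay far above the rest. The means of 74.9 ± 10.1 and 60.8 ± 3.19 (SD, n = 5 each) gave a log2 fold change of -0.29 ± 0.089 (standard error; exact permutation test, two-sided, p = 0.00794). Without control rat 1 it was -0.21. With TPM as deposited it was -0.19, with an unadjusted limma p of 0.0604, and the groups overlapped.

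MRPS34 (ENSRNOG00000015479), a mitochondrial addition to the small subunit, was at 77.5, 59.8, 56.7, 58.4 and 54.9 in control rats and at 51.2, 52.2, 51.0, 44.4 and 51.1 in HFD-fed rats. The groups did not overlap, and 4 of the 5 HFD-fed rats lay close together with rat 4 below them. The log2 fold change was -0.29, or -0.20 without control rat 1 and -0.19 with TPM as deposited, and MRPS34 was 1 of the 3 genes with an unadjusted limma p under 0.05 in all 3 of these fits. MRPL54 and MRPS18A were the other two.

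MRPS14 (ENSRNOG00000002569), which has a bacterial counterpart, was at 66.7, 52.1, 57.7, 53.1 and 55.6 in control rats and at 47.2, 50.6, 51.1, 42.3 and 50.3 in HFD-fed rats. The groups did not overlap, though HFD-fed rat 3 and control rat 2 lay close to each other. A difference of -0.24 on the log2 scale, with a standard error of 0.084, was found, and it was -0.18 without control rat 1. With TPM as deposited it was -0.13, with an unadjusted limma p of 0.141, and the groups overlapped.

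MRPS16 (ENSRNOG00000006898), also with a bacterial counterpart, was at 201, 163, 165, 171 and 156 in control rats and at 132, 168, 136, 141 and 134 in HFD-fed rats. HFD-fed rat 2 lay among the control rats and the other 4 below them. On the log2 scale the difference was -0.27, -0.21 without control rat 1 and -0.16 with TPM as deposited.

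MRPS18A (ENSRNOG00000019511) was at 185, 131, 123, 121 and 112 in control rats and at 103, 115, 105, 100.4 and 99.8 in HFD-fed rats. Control rat 1 was far above the others, and HFD-fed rat 2 and control rat 5 overlapped. Its log2 difference of -0.34, with a standard error of 0.121, was the largest among the MRPS genes and became -0.22 without control rat 1. With TPM as deposited, where it was -0.24, MRPS18A and MRPL54 were the 2 genes of the 40 whose groups did not overlap, or 5%, against 0.335% of all genes and 1.4% of the named genes with every HFD-fed rat below every control rat.

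Of the 40 genes, 4 had every HFD-fed rat below every control rat after rescaling (MRPL48, MRPS14, MRPS28 and MRPS34), or 10%, against 2.01% of all genes and 6.9% of the named genes. None of the 40 had the reverse order, which 1.39% of all genes and 0.6% of the named genes had. MRPS6 and MRPS21, the most abundant MRPS genes, did not pass at an unadjusted p of 0.05 with all rats. MRPS6 had 355 ± 27.7 in control rats and 328 ± 17.8 in HFD-fed rats (SD, n = 5 each), which is a log2 fold change of -0.11, and MRPS21 had 238 ± 48.3 and 205 ± 22.8 (SD, n = 5 each), which is a log2 fold change of -0.20 that was -0.09 without control rat 1. Without that rat MRPS6 passed, at -0.16 with an unadjusted limma p of 0.0128. MRPS33 was the nearest to 0 of the MRPS genes with all rats, at -0.07 after rescaling, -0.035 without control rat 1 and 0.04 with TPM as deposited. Near-identical copies can share reads in such estimates, and 10 of the 40 genes have pseudogenes of their name in RefSeq, among them MRPL15, MRPL42, MRPL54, MRPS16 and MRPS21.

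The genes were then summed within each rat. The summed rescaled TPM of all 40 were 4768, 4016, 3937, 4237 and 3913 in control rats 1 to 5 and 3589, 3988, 3726, 3527 and 3389 in HFD-fed rats 1 to 5. HFD-fed rat 2 lay among the control rats and the other 4 HFD-fed rats below all of them. The mean was 4174 ± 356 in control rats and 3644 ± 227 in HFD-fed rats (SD, n = 5 each), a difference of -12.7% from the control mean, or of -9.49% from the mean of control rats 2 to 5. With TPM as deposited the sums were 3572, 4059.6, 4121, 4395 and 3985 in control rats and 3861, 3772, 3521, 3882 and 3823 in HFD-fed rats. Control rat 1, the highest after rescaling, was then the lowest of the control rats, within the range of the HFD-fed rats, and the HFD mean differed by -6.33% from the control mean and by -8.90% from that of control rats 2 to 5.

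The genes were also summed apart by symbol. The MRPS sum thus includes MRPS18A and MRPS36, with mean rescaled TPM of 120 and 117, which later work places outside the small subunit. The MRPL sum had a mean of 2534 ± 217 in control rats and 2204 ± 166 in HFD-fed rats, and the MRPS sum one of 1640.4 ± 142 and 1440.2 ± 65.7 (SD, n = 5 each), differences of -13.0% and -12.2%. The ratio of the MRPS to the MRPL sum, which does not depend on the scaling, was 0.648 ± 0.0142 in control rats and 0.655 ± 0.0255 in HFD-fed rats, a difference smaller than the SD of either group. Counted by gene, HFD-fed rats 1 to 5 had 35, 22, 36, 35 and 40 of the 40 genes below the control median. Control rats 1 to 5 had 12, 14, 14, 12 and 28. An even split is what a further rat like the control rats would give on average, and HFD-fed rat 2 lay near it. The 40 genes varied together within the diets, with a median correlation between pairs of genes of 0.438, or 0.323 without control rat 1. The genes counted in a rat are therefore not independent observations.

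**Figure D3:**
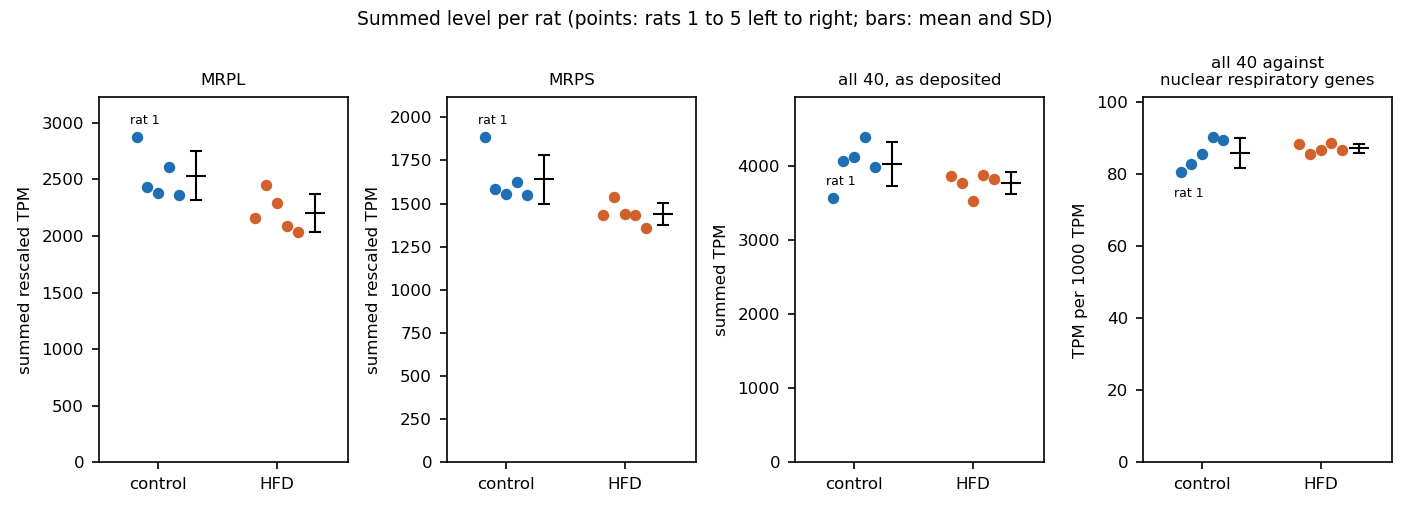
Summed level per rat on the vertical axis, in rescaled TPM for the MRPL and the MRPS genes, in TPM as deposited for all 40 genes, and per 1000 TPM of nuclear respiratory genes. Points are rats 1 to 5 from left to right, and bars are mean and SD of 5 rats. Control rat 1 is the highest control rat in the first pair of panels and the lowest in the last pair.

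Other genes of mitochondrial gene expression were few in the symbol lists. The mitoribosome proteins with symbols of another kind were represented by 3 of 5 genes looked for, all with a log2 fold change below 0 after rescaling (2 of 3 with TPM as deposited), and 1 of 3 had an unadjusted limma p under 0.05. Of all genes 47.1% and of the named genes 70.2% had a log2 fold change below 0 after rescaling (27.0% and 44.5% with TPM as deposited), and 4.84% and 13.4% were lower at that p. The gene that passed was GADD45GIP1, a large subunit protein, with 56.9 ± 12.5 in control rats and 44.1 ± 4.14 in HFD-fed rats (SD, n = 5 each), which is a log2 fold change of -0.35, or -0.22 without control rat 1. CHCHD1, a small subunit protein, had a log2 fold change of -0.20 (-0.13 without control rat 1) and an unadjusted p of 0.0633 by limma. None of 17 translation factor genes was named. HARS2, the mitochondrial histidyl-tRNA synthetase, had a log2 fold change of -0.17, and -0.21 with an unadjusted limma p under 0.05 without control rat 1. C1QBP, a mitochondrial matrix protein, had one of -0.15 (-0.06 without control rat 1) and GRSF1, an RNA-binding protein of mitochondrial RNA granules, one of -0.04 (0.06 with TPM as deposited). HSD17B10, also looked for under mitochondrial RNA metabolism, had one of -0.15 (-0.09 without control rat 1 and -0.04 with TPM as deposited). With all rats, none of HARS2, C1QBP, HSD17B10 and GRSF1 had an unadjusted p under 0.05. ESRRA, a nuclear receptor that regulates genes of mitochondria, had 77.2 ± 6.60 and 61.2 ± 5.28 (SD, n = 5 each), which is a log2 fold change of -0.33 with and -0.34 without control rat 1. With all rats its unadjusted limma p was 0.00181 and its adjusted p 0.540. With TPM as deposited the log2 fold change of ESRRA was -0.23, with an unadjusted limma p not under 0.05. ESRRA was the only gene named of 9 such regulators looked for, and it was also in the list that the study selected on these rats.

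The messengers that the mitoribosome translates were looked at beside its own genes. Of the 13 messenger genes of the mitochondrial DNA, 0 had an unadjusted limma p under 0.05, and their median log2 fold change was -0.07 after rescaling, with 12 of 13 below 0. When control rat 1 was left out the median was 0.15, 0 of 13 were below 0 and 1 had an unadjusted p under 0.05 with the higher mean log2 level in HFD-fed rats. Without that rat, 5.51% of all genes and 2.55% of the named genes were higher by this criterion. The median of the 13 was 0.03 with TPM as deposited, with 3 of 13 below 0. The shares of all genes below 0 were 47.1% after rescaling, 49.5% without control rat 1 and 27.0% with TPM as deposited. Among the named genes these shares were 70.2%, 73.7% and 44.5%. MT-ND2, a subunit of complex I, had the smallest p of the 13, with 3044 ± 1537 in control rats and 2445 ± 621 in HFD-fed rats (SD, n = 5 each). Its log2 fold change of -0.24 rested on control rat 1, at 5754 against 2096 to 2787 in the other control rats, and was 0.02 without that rat. Per 1000 TPM of these messengers, the 40 genes had 48.4 ± 11.04 TPM in control rats and 43.0 ± 4.49 in HFD-fed rats (SD, n = 5 each), with control rat 1 the lowest at 30.6. Without control rat 1 the control mean was 52.9 ± 5.47 (SD over 4 rats) and lay between 48.1 and 59.5, above the HFD-fed rats at 36.5 to 47.1. The difference between the lists was not tested.

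Lower means were also found among other abundant genes of mitochondria and translation. Of the 76 nuclear respiratory genes, 40 (52.6%) had an unadjusted limma p under 0.05 with the lower mean log2 level in HFD-fed rats and 0 with the higher, where 4.84% of all genes and 13.4% of the named genes were lower by this criterion. The TPM as deposited gave 19 of 76, where the backgrounds were 1.26% and 4.05%. The median log2 fold change was -0.22 (-0.16 without control rat 1 and -0.12 with TPM as deposited). NDUFC1, a subunit of complex I, had a log2 fold change of -0.31 and SDHB, the iron-sulphur subunit of complex II, one of -0.24. Of the 63 cytosolic ribosomal protein genes, 11 (17.5%) were lower by the same criterion and 0 higher (5 lower with TPM as deposited), with a median of -0.16 (-0.09 without control rat 1 and -0.06 with TPM as deposited). Among 5 named chaperones and related proteins of mitochondria, 3 were lower by this criterion (0 with TPM as deposited), and HSPE1, the co-chaperonin of the matrix, had 646 ± 39.7 and 538 ± 12.4 (SD, n = 5 each), which is a log2 fold change of -0.26 with and -0.27 without control rat 1. The 2 that were not lower by it were HSPD1, the chaperonin that works with HSPE1, at 0.03 with all rats and -0.08 without control rat 1, and HSPA9, a matrix chaperone, at 0.17 and -0.0060, both named after their values were seen.

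The mitochondrial ribosomal genes were then set against these lists within each rat. Per 1000 TPM of nuclear respiratory genes, they had 85.8 ± 4.18 TPM in control rats and 87.1 ± 1.24 in HFD-fed rats (SD, n = 5 each), and 87.0 ± 3.52 in control rats 2 to 5. Per 1000 TPM of cytosolic ribosomal protein genes, they had 85.4 ± 2.79 and 83.3 ± 1.89 (SD, n = 5 each). With all rats, both differences were smaller than the SD of the control rats. Without control rat 1, which was at 80.7, the control rats had 86.5 ± 1.10 (SD over 4 rats) per 1000 TPM of cytosolic ribosomal protein genes, a difference of -3.69% that was larger than either SD, with control rats at 85.7 to 88.1 and HFD-fed rats at 81.5 to 86.3. These ratios do not depend on the scaling of the rats.

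**Figure D4:**
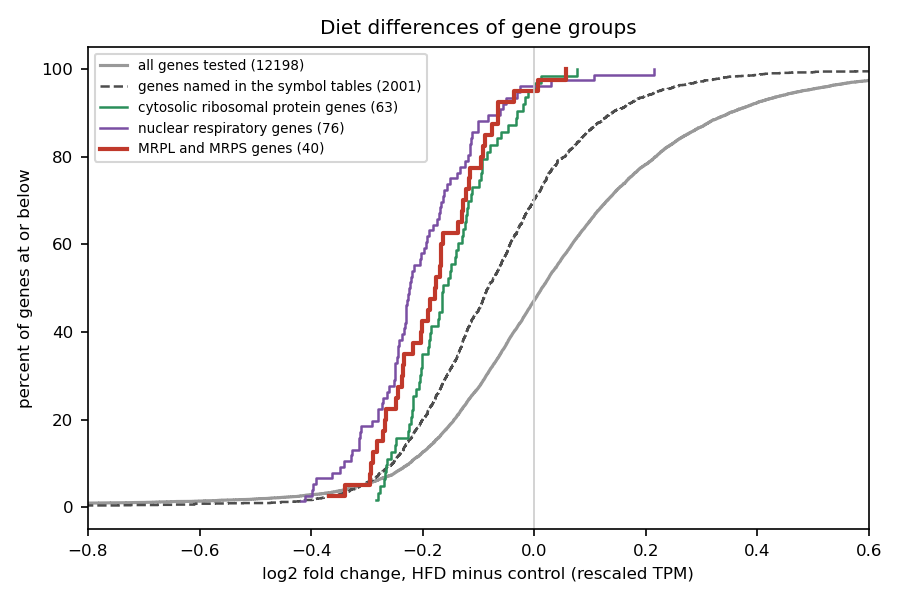
Percent of genes at or below each log2 fold change, HFD minus control, for the 40 mitochondrial ribosomal genes (red), 76 nuclear respiratory genes (purple), 63 cytosolic ribosomal protein genes (green), 2001 named genes (dashed) and 12198 genes tested (grey), all from rescaled TPM. The red, purple and green curves lie left of the dashed and grey curves over most of their height, with medians of -0.18, -0.22 and -0.16 against -0.08 and 0.01, and all medians move up by 0.10 with TPM as deposited.

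Markers of cell types were compared in the same libraries. Of the 9 epithelial markers, 1 had an unadjusted limma p under 0.05, KL, the klotho gene, with 375 ± 59.0 in control rats and 448 ± 17.3 in HFD-fed rats (SD, n = 5 each), and the median log2 fold change of the 9 was 0.04. The log2 fold change of KL was 0.27, or 0.16 without control rat 1, where 1 of the 9 was lower and 1 higher at an unadjusted p under 0.05. Over all genes tested, 4.84% were lower and 3.78% higher at that p with all rats, and 6.28% and 5.51% without control rat 1. Among the named genes, the shares were 13.4% and 1.6%, and 17.0% and 2.55%. With TPM as deposited, the median of the 9 was 0.14 and 0 of the 9 had an unadjusted p under 0.05, with KL at 0.38. The 3 named blood genes of 4 looked for, of which HBA-A1 was the most abundant, had summed rescaled TPM of 7430.5, 6501, 3444, 5979 and 3600.2 in control rats and 4514, 3915, 4282, 6009 and 2933 in HFD-fed rats, so that the groups overlapped. The only named endothelial marker of 5, PLVAP, had 66.3 ± 17.6 and 56.9 ± 6.06 (SD, n = 5 each), on the log2 scale -0.19, or -0.04 without control rat 1 and -0.09 with TPM as deposited. RGS5 (mural cells, 1 of 4 named), DCN (stroma, 1 of 5) and CD74 (macrophages, 1 of 7) had log2 fold changes of 0.36, 0.30 and 0.12, with unadjusted limma p of 0.160, 0.101 and 0.329. The log2 fold changes without control rat 1 were 0.095, 0.19 and 0.12, and control rat 1 had 42.6 rescaled TPM of RGS5 against 106 to 110.4 in the other control rats. With TPM as deposited, RGS5, DCN and CD74 were at 0.47, 0.40 and 0.22. None of these markers was at 0 in any rat. Markers of neurons, glia and ependyma were not analysed here, and the part of cell composition in the differences was not tested.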

How the data were processed

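Choroid plexus RNA of 10 rats was sequenced as paired-end reads. For alignment the authors used STAR (2.7.2a in the submitters' processing notes) with the rat build Rnor_6.0, and RSEM 1.3.3 then gave the deposited TPM and FPKM of every Ensembl gene. Only the TPM were tested. The authors' FPKM served to compute each rat's mean effective transcript length. The authors' own test used raw counts that were not used here. Annotation release 104 is named in the study's methods.

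The 40 genes, the gene lists and the tests were chosen with earlier results of these data known, and the grouping by bacterial counterpart was made after the values had been seen. TPM were rescaled by median ratios, and limma 3.58.1 under R 4.3.3 (lmFit, eBayes with a mean-variance trend, diet as the only term) was fitted to log2(rescaled TPM + 0.1) of 12198 genes with a mean of at least 1, with Benjamini-Hochberg adjustment over all of them. Fold changes are on that scale. Single genes also had an exact two-sided permutation test. Sums and lists were described with no test. The fit was tested on simulated data, of which no result is given here.

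Genes named by rule were MRPL12 and MRPL15, which both symbol lists hold, the 8 with the smallest p, the 3 most abundant, and those with the highest and lowest fold change, of each subunit where it applies, and the 3 with the widest and the 3 with the narrowest spread. From each other list, the 2 genes with the smallest p could be named. The labels number the rats of both diets from 1 to 5. The correlations of same-numbered rats, after removing the diet means, ran from -0.0376 to 0.116, and nothing in the labels pairs them. Alternatives were TPM as deposited, upper-quartile scaling, pseudocounts of 0.01 and 1, no filter or a minimum of 10, the number as a block, array weights, effective length as a covariate, a robust variance and leaving out each rat. Each group is 5 rats, so p-values measure the spread between rats. Sequences came from RefSeq's GRCr8. The remaining steps ran under python 3.11.15 with pandas 2.3.3, numpy 2.4.6 and scipy 1.17.1, and plots were drawn with matplotlib 3.10.9.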

Additional observations from a re-analysis of the deposited data

Results flagged for a closer look

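Within each diet, the highest or lowest of the 5 rats was set against the other 4. Of 60 groups of values looked at, 16 had a rat whose gap to its nearest neighbour was over 0.71 of the group's range, where chance flags about 1 in 20, or 3 groups. Control rat 1 was that rat in 11 of the 16. The groups are not independent, since the genes vary together, the sums hold the same genes and some genes were named for their wide spread. The 16 are therefore not separate findings that can be weighed against 3. Control rat 1 was the highest control rat for MRPL54 (319 rescaled TPM), MRPS21 (323), MRPS18A (185), MRPL48 (53.2), MRPS34 (77.5), MRPL52 (85.2) and the MRPS sum (1888). It also stood apart from the other control rats in its scaling divisor (0.749), its mean effective transcript length (789 bases), its 1741 genes at over 2-fold distance from the other animals' median and its TTR share (39.7% of TPM). The others were a low control rat 5 for MRPL42 (159), a low HFD-fed rat 4 for MRPS34 (44.4), a high HFD-fed rat 2 for MRPS16 (168) and MRPL3 (55.1), and control rat 4 for the ratio of the MRPS to the MRPL sum (0.622, against 0.652 to 0.656 in the other control rats). The part of these rats' handling or RNA quality was not tested.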

How the results depend on the processing

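The median log2 fold change of the 40 genes was -0.18 with 10 rats and rescaled TPM and kept its sign under all 21 alternatives. Leaving out each rat moved it between -0.22 (without control rat 5) and -0.12 (without control rat 1), and the count of genes at an unadjusted limma p under 0.05 between 9 and 15, from 11. Without control rat 1, which gave 15, 6.28% of all genes and 17.0% of the named genes were lower by this criterion. With all rats these shares were 4.84% and 13.4%. The shares when another rat was left out are not given here. With TPM as deposited the count among the 40 was 3. With array weights, which give less weight to rats that fit poorly, it was 20. The same count over all genes tested went from 590 to 154 and 1001. Genes of the whole table with an adjusted p under 0.05 numbered 0 with all rats and 1 without the filter on low values, 3 with array weights and 2 when each rat's mean effective transcript length was a covariate, where the median of the 40 was -0.11 with 39 below 0 and 10 at an unadjusted p under 0.05. Of all genes, 491 were lower at that p in the fit with this covariate. With the replicate number as a block, 12 of the 40 genes and 616 of all genes were lower at an unadjusted p under 0.05, the median was -0.18 and 0 genes of the table had an adjusted p under 0.05. Of 399 values of 19 named genes, 366 kept their direction and side of the threshold, 14 no longer passed, 9 passed newly and 10 changed sign. The 10 were MRPL33 (0.037), MRPS33 (0.037) and MRPL3 (0.010) with TPM as deposited, MRPL18 with array weights (-0.055), without control rat 1 (-0.025) and with TPM as deposited without that rat (-0.014), and MRPL33 without control rat 4 (0.21), control rat 5 (0.056), HFD-fed rat 4 (0.016) or HFD-fed rat 5 (0.098). Leaving out each rat moved MRPL33 between -0.262 and 0.209 and MRPL18 between -0.025 and 0.10. The cause was not tested. The alternative of TPM as deposited without control rat 1 was added after seeing the data. The read number of each library is unknown, so no counting error can be given.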
